A study of Mus musculus with 4 samples.

Results

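The genes described here are the kinesins and the centromere proteins of the mouse, taken as every annotated gene whose symbol begins with Kif or Kifc and a digit, or with Cenp and a letter, without processed copies. Of 50600 annotated genes 65 met the rule. They were 42 kinesins, 21 CENP-named genes and 2 genes that share only the name. The latter are Kif1bp, which encodes a kinesin-binding protein, and Kif16bos, a transcript on the opposite strand just outside Kif16b. RNA of primary T cells of the inbred strain C57BL/6NJ was sequenced in 4 libraries, a single group numbered 1 to 4 in the labels, which give no genotype change, treatment, sex or age. The labels title the assay total RNA and link a library protocol for poly(A)+ RNA and a differentiation protocol for CD4+ T cells. In the headers of the deposited tables every alignment is named as Th0, activated, at 24 h. Th0 is the usual name for CD4+ T cells stimulated without polarising cytokines. No label states that the libraries came from separate animals, so the spread between them may be partly technical. With no second group, the comparisons are between genes within a library and between libraries.

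Kinesins are motor proteins that use ATP to walk along microtubules or to take their ends apart. Some act in cell division, where they push spindle poles apart, move chromosomes and organise the central spindle. Others carry vesicles, organelles and ciliary cargo. Centromere proteins mark the centromere with the histone variant CENP-A and build on it the inner kinetochore, a constitutive network to which the microtubule-binding outer kinetochore attaches. Resting T cells do not divide, and stimulation through the T-cell receptor brings them into the cell cycle.

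Libraries summed to 60102919, 273136467, 48608896 and 47558517 gene-assigned fragments in replicates 1 to 4, so that replicate 2 held 63.6% of all fragments. Levels are given as TPM, the fragments of a gene per length of its exons, scaled to the same total in each library. A gene counted at 0 was given an upper limit from 3 fragments, which covers counting error only. The T-cell markers Trac, Cd5, Cd4 and Cd3e summed to between 3448 and 3791 TPM. Lists of 4 genes each for other cells stayed low in every library, with summed levels of 2.08 to 5.10 TPM for B cells, 0.196 to 1.16 for macrophages and neutrophils, 0.134 to 0.438 for neurons and 1.18 to 2.52 for ciliated cells. Csf1r and S100a8 of the myeloid list, Syt1 of the neuronal list and Dnah5 and Tekt1 of the ciliated list had no fragment.

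Promoters of the mitotic kinesins are shown first. More of them held the elements marked below than promoters of the transport kinesins did, a difference that was not tested. The stretches below run from 80 bases before the RefSeq start site to 30 bases from it (GRCm38.p6, 5′ to 3′ on the gene's strand). Capitals mark the cell-cycle genes homology region (CHR), searched as TTTGAA or TTCGAA on both strands, and the box bound by the factor NF-Y, searched as CCAAT on both strands. Both elements are known from promoters of genes expressed late in the cell cycle, the CHR as a site of the DREAM and MuvB complexes. The first 7 stretches are members with a CHR close to the start site. Elements farther upstream are cut off, among them NF-Y boxes of Cenpa at -109 and -86 and of Kif4 at -152. The last 2 are transport kinesins whose levels lie within the mitotic range, Kif3b with an NF-Y box and Kif1c with neither element.
Kif11 (chr19:37376302-37376411, plus strand): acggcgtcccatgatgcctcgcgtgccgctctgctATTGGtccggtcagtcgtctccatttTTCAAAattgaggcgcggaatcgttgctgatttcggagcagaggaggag
Kif18b (chr11:102925095-102925204, minus strand): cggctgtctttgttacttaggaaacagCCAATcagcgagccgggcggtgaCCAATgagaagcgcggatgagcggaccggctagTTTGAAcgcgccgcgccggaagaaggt
Kifc1 (chr17:33890604-33890713, minus strand): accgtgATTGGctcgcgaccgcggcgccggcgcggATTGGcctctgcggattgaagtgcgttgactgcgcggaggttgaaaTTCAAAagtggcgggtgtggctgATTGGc
Kif4 (chrX:100625985-100626094, plus strand): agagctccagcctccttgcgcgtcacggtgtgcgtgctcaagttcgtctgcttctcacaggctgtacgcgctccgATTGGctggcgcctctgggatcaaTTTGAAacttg
Kif20b (chr19:34922278-34922387, plus strand): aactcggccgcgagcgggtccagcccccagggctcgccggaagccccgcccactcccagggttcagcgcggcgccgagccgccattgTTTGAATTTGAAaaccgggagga
Kif23 (chr9:61946770-61946879, minus strand): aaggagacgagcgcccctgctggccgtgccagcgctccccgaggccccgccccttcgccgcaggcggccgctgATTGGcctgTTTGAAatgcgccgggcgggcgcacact
Cenpa (chr5:30666806-30666915, plus strand): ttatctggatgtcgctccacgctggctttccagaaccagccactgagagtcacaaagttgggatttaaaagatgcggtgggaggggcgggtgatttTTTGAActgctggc
Kif3b (chr2:153291336-153291445, plus strand): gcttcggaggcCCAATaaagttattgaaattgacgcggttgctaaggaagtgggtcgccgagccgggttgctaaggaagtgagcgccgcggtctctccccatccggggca
Kif1c (chr11:70700468-70700577, plus strand): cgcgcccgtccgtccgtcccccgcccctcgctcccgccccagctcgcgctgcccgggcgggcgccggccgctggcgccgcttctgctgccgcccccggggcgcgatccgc

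A promoter window of 300 bases (250 before and 50 from the start site) was found for 55 of the 65 genes. The CHR letters occurred in 10 of 11 mitotic kinesins with a window (90.9%), with Kif18a as the exception, and in 1 of 10 transport kinesins, Kif1a. Among all 27025 genes with a window, 21.7% held them, and over the 6489 genes at a mean of 10 TPM or more 16.5% did. Among the 16 inner kinetochore genes 5 held a CHR (31.2%), Cenpa, Cenpl, Cenpm, Cenpn and Cenpw. Of 12 other kinesins with a window 4 held one (33.3%), Kif24, Kif26b, Kif27 and Kifc5b. Of the remaining 5 CENP-named genes Cenpf held one. CCAAT occurred in 7 of 11 mitotic kinesins (63.6%), 3 of 10 transport kinesins (30.0%) and 12 of 16 inner kinetochore genes (75.0%), against 41.1% of all genes. Both elements were together in 7 of 11 mitotic and 0 of 10 transport kinesins. They were together in 4 of 12 other kinesins, 5 of 16 inner kinetochore genes and 9.65% of all genes. No window was at hand for Kif20a or Kif5b, the second mitotic and the highest transport kinesin.

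Most CHR copies of the mitotic promoters lay close to the start site, and 4 of 13 did not, at -228 in Kif14, -234 in Kif15, -215 in Kif22 and -103 in Kif2c. A CHR began within 30 bases on either side of the start site in 8 of 11 mitotic kinesins (72.7%) and 0 of 10 transport kinesins. The share was 3 of 12 (25.0%) for other kinesins, 3 of 16 (18.8%) for inner kinetochore genes and 3.95% for all genes. The range was chosen after the positions had been seen. In Kif11 the CHR lay at -19 on the opposite strand, with an NF-Y box at -45, counted in bases from the start site at 0. Kif18b carried a CHR at +3 behind a pair of NF-Y boxes at -53 and -30. Kif23 had the elements next to each other at -7 and 2, and Kif20b had 2 CHR copies in a row and no NF-Y box. A match of letters is not a binding site, and no library here measured binding.

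**Figure D1:**
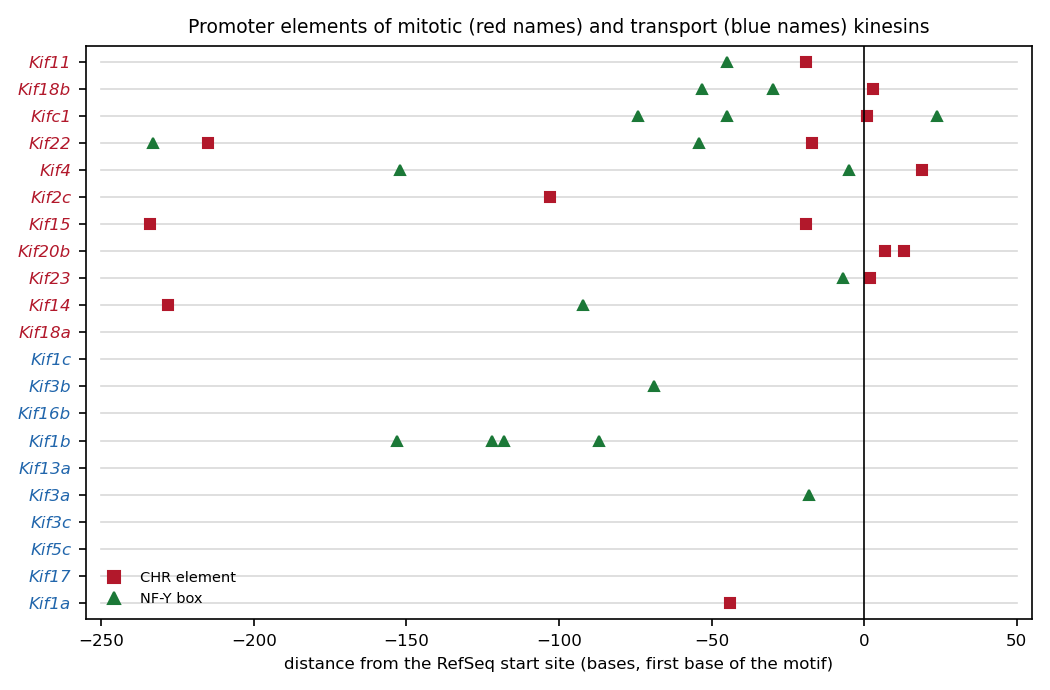
Positions of CHR elements (red squares) and NF-Y boxes (green triangles) in the promoter windows of 11 mitotic (red names) and 10 transport kinesins (blue names), ordered by level; the x axis is the distance in bases of the element's first base from the RefSeq start site, which is 0, and genes with 2 windows show the elements of both. Red squares gather at the start site in the mitotic kinesins, 8 of which have one within 30 bases, and a single one occurs among the transport kinesins.

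All genes of the mitotic kinesin list and all CENP-named genes were expressed in every library. The members below 1 TPM were transport kinesins, other kinesins and Kif16bos. Among the other kinesins is Kif2b, which had no fragment and which a wider list counted as mitotic. At 1 TPM or more in all 4 libraries were 50 of the 65 members (76.9%), against 22.7% of all annotated genes. At 10 TPM or more were 44 members (67.7%), against 16.0%. All 12 mitotic kinesins, all 16 inner kinetochore genes and the other 5 CENP-named genes passed 1 TPM, as did 10 of 13 transport kinesins and 6 of 17 other kinesins. The background includes 28329 genes without a fragment in any library.

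Kif11, the motor that slides antiparallel microtubules apart to separate the spindle poles, had the highest mean level of all members, though its range overlapped that of Cenpx, which exceeded it in replicate 4. It stood at 201, 199, 197 and 173 TPM in replicates 1 to 4 (192 ± 13.1, mean ± SD, n = 4), the lowest value being that of replicate 4. Kif15, the motor that can stand in for Kif11 on the spindle, stood at 43.5, 44.5, 42.9 and 39.3 TPM. Kif11 was above Kif15 in every library, by 2.15 ± 0.03 on the log2(TPM + 1) scale (n = 4), and by 0.98 when the median transcript length replaces the exon length, an alternative described with the centromere genes.

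Motors of the central spindle and of cytokinesis followed. Kif20a, which brings the chromosomal passenger complex to the central spindle, stood at 123, 146, 147 and 123 TPM, and its values did not overlap those of the gene above or below it among the mitotic kinesins. Kif20b, its paralog of the midbody, reached 44.0, 44.9, 39.5 and 40.8 TPM. Kif23, the motor of centralspindlin, was at 42.7, 43.0, 42.7 and 38.5 TPM, low in replicate 4 and otherwise level. Kif4, a chromokinesin that shapes chromosome arms and limits central spindle length, was at 54.5, 61.9, 63.2 and 53.0 TPM. Kif14, a cytokinesis motor, reached only 19.3 ± 0.892 TPM.

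The remaining motors of the list act on chromosomes and microtubule ends. Kif22, the chromokinesin that pushes arms outward, was at 64.7 ± 4.43 TPM. Kif2c, a depolymerase that corrects wrong kinetochore attachments, was at 54.9 ± 4.57, above its paralog Kif2a (32.7 ± 2.07), a depolymerase listed with the other kinesins, by 0.73 ± 0.13 on the log2(TPM + 1) scale. Kif18b, which works at astral microtubule ends, was at 79.3, 92.6, 101 and 89.0 TPM, and Kif18a, which dampens chromosome oscillations at the metaphase plate, at 9.32, 9.44, 7.75 and 7.35. Kif18a was thus the lowest mitotic kinesin and the only one under 10 TPM, and Kif18a minus Kif18b was -3.27 ± 0.26 on the log2(TPM + 1) scale. With the median transcript length Kif18a had 15.4 TPM, above Kif14 at 14.1, and the difference was -1.91.

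Kifc1, a minus-end motor that focuses spindle poles, was at 69.5, 86.3, 88.6 and 80.2 TPM, and its close copy Kifc5b at 36.9, 41.8, 39.6 and 36.0. Of the 50-base words in Kifc1 transcripts 39.7% also occurred in another gene, mainly Kifc5b, and 37.4% of those of Kifc5b occurred elsewhere, mainly in Kifc1. Fragments that align to several places were not counted, so the levels of both are uncertain. The processed copies Kif22-ps, Kif4-ps and Kifc5c-ps, outside the rule, had 1, 0 and 0 fragments.

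Order among the mitotic kinesins by exon-length TPM was resolved at 6 of 11 steps. There the lowest library of a gene lay above the highest of the next. Kif18b and Kifc1, Kif22 and Kif4, Kif4 and Kif2c, Kif15 and Kif20b, and Kif20b and Kif23 overlapped. Within libraries, Kif18b was above Kifc1, Kif22 above Kif4 and Kif4 above Kif2c in all 4. Kif20b was above Kif23 in 3 libraries, and Kif15 above Kif20b in 1. With median transcript lengths some resolved steps turned, as Kif22 (93.6 TPM) passed Kifc1 (74.8) and Kif15 (60.2) passed Kif2c (57.3). Kif18a passed Kif14 as well, as given above. Among the 10 transport kinesins at 1 TPM or more all 9 steps were free of overlap with exon lengths. With median transcript lengths Kif1b (23.4 TPM) passed Kif16b (15.3) and Kif3a (4.55) passed Kif13a (4.38).

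Of the 13 transport kinesins 10 passed 1 TPM in each library, and Kif5a, Kif1a and Kif17 were below 1 TPM in all. Kif5b, the heavy chain of conventional kinesin in most cell types, stood at 97.3, 93.8, 92.3 and 86.2 TPM. Its neuronal paralogs were far lower, Kif5c at 2.10 ± 0.367 TPM and Kif5a at 0.0887, 0.166, 0.243 and 0.153 TPM. Kif1c, a vesicle motor, was at 49.1, 51.8, 53.2 and 50.7 TPM, with a coefficient of variation of 3.39%, second lowest after Kif13b (2.51%) among the 50 members at 1 TPM or more. Kif3b, a subunit of the heterotrimeric kinesin that also builds cilia, was at 46.3, 47.6, 42.7 and 43.3 TPM. Its usual partner subunit Kif3a was lower, at 5.06, 4.42, 4.83 and 4.18, and so was the related Kif3c at 3.10 ± 0.248. Kif3a minus Kif3b was -3.03 ± 0.12 on the log2(TPM + 1) scale.

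The endosome motor Kif16b (17.3 ± 0.732 TPM), Kif1b (13.3 to 16.2), Kif13b (11.2 ± 0.281) and Kif13a (7.02 ± 0.931) completed the expressed transport motors. Kif1a and Kif17 had few fragments, each in a single library. Kif1a, the motor of synaptic vesicle precursors, had 2 fragments, both in replicate 3, of 429406799 in the 4 libraries. Kif17 had 27 fragments, all in replicate 2, where it reached 0.0745 TPM and 3 fragments would correspond to 0.00827 TPM. In replicates 1, 3 and 4, which had none, 3 fragments would correspond to 0.0369, 0.0463 and 0.0467 TPM.

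Among the other kinesins Kif21b was the highest at 35.9, 41.1, 46.2 and 41.6 TPM. It encodes a motor that restrains microtubule growth and is known from lymphocytes and neurons. Its paralog Kif21a had no fragment in any library, an upper limit of 0.0330 TPM in the shallowest, so that Kif21b was at least 1259-fold higher when 3 fragments per library are taken for Kif21a. Kif24, a centriolar motor that holds back cilia, had 11.2 ± 0.761 TPM, Kif7, a regulator of Hedgehog signalling, 10.8 ± 0.705, and the minus-end motor Kifc3 5.50 ± 0.913. Kif9, Kifc2 and Kif26b were near 1 TPM, at 0.328 to 1.08, 0.377 to 1.02 and 0.468 to 0.849. Kif12, Kif19a, Kif2b and Kif6 had no fragment, which allows up to 0.0953 TPM for the shortest of them, Kif2b. Kif26a, Kif27 and Kif28 had 19, 13 and 16 fragments in all. Kif1bp stood at 18.3 ± 0.997 TPM and Kif16bos at 0 to 0.858.

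**Figure D2:**
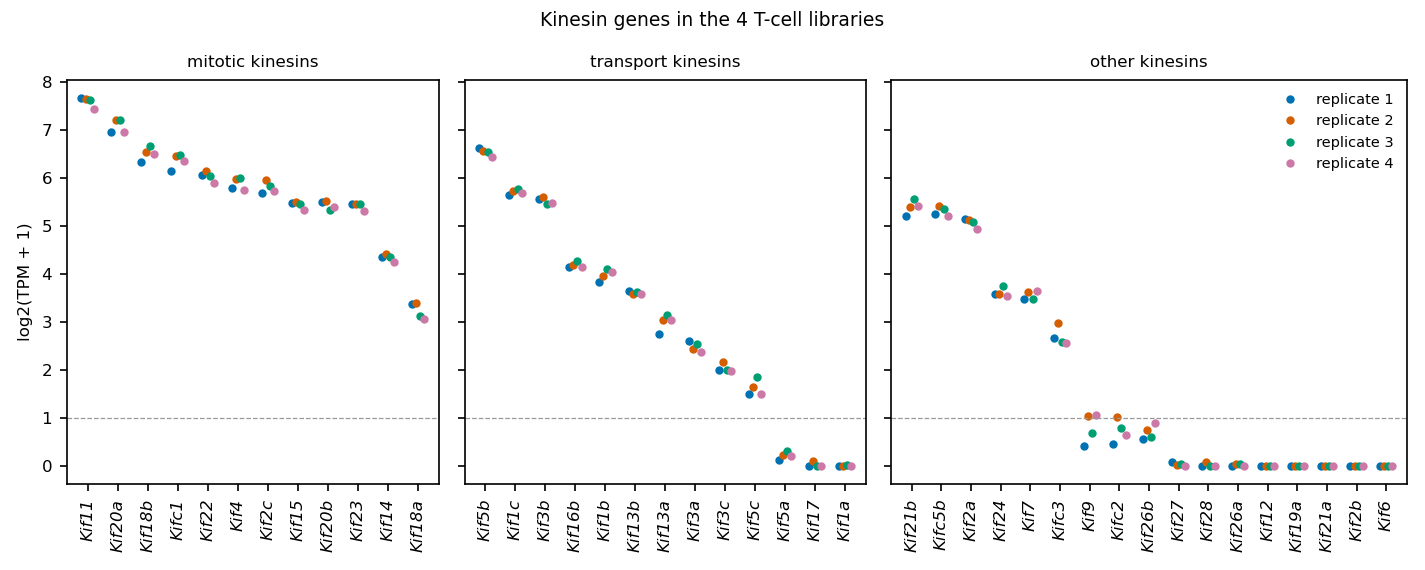
Level of each of the 42 kinesins as log2(TPM + 1), a point for each library, in the mitotic, transport and other lists ordered by mean; the dashed line marks 1 TPM. All 12 mitotic kinesins lie above the line in every library, while 3 of 13 transport kinesins and 9 of 17 other kinesins lie below it in every library.

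Mitotic kinesins were above transport kinesins in each library, with overlap between the lists. List medians were 52.5, 61.4, 59.5 and 52.7 TPM for the mitotic and 5.70, 7.22, 7.88 and 7.27 TPM for the transport list in replicates 1 to 4. On the log2(TPM + 1) scale the medians differed by 3.00, 2.93, 2.77 and 2.70, a mean of 2.85 ± 0.14 (SD, n = 4). Of the 156 pairings of a mitotic with a transport kinesin, 132 (84.6%) had the mitotic gene higher in all 4 libraries. Only Kif11 and Kif20a were above every transport kinesin, because Kif5b exceeded the other mitotic genes in part or all of the libraries. Part of the distance came from the transport members under 1 TPM, and among genes at a mean of 1 TPM or more the difference was 2.05. The lists were drawn up with earlier results of these data known, so no test is attached to it.

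Summed over these names, the 12 mitotic genes made up 67.6, 68.6, 68.5 and 67.2% of the summed TPM of the 42 Kif- and Kifc-named genes in replicates 1 to 4, a sum that leaves out Cenpe. Transport genes made up 19.8 to 21.1%, and Kif11 alone 15.7 ± 0.817%.

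**Figure D3:**
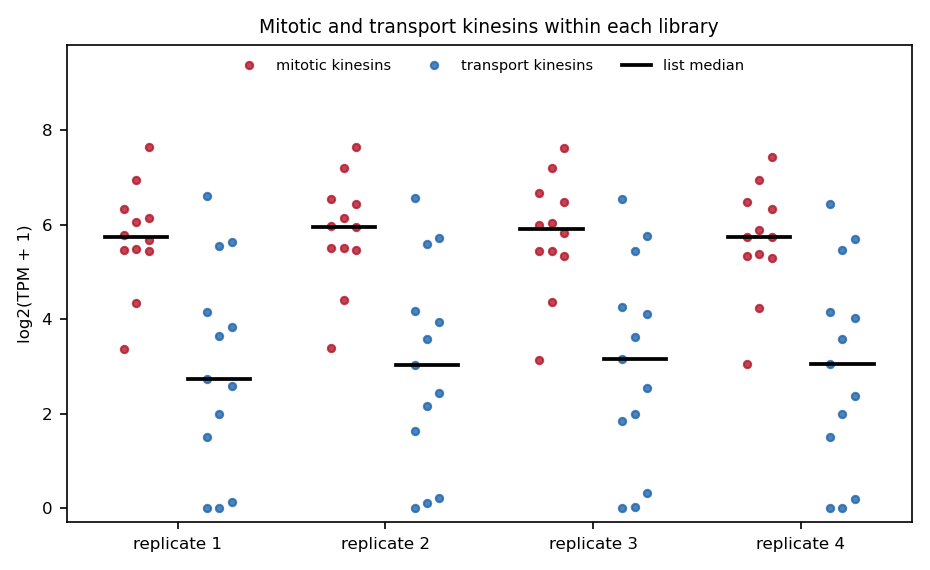
Levels as log2(TPM + 1) of the 12 mitotic (red) and 13 transport kinesins (blue) in each library, with a black bar at the list median. The medians lie 2.70 to 3.00 apart in every library, and the highest transport point, Kif5b, reaches into the mitotic range.

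Each of the 16 genes of CENP-A and the constitutive network reached 10 TPM in the 4 libraries, and their median was 29.6 TPM. They stood 1.95 ± 0.23 above the transport kinesins on the log2(TPM + 1) scale, or 1.15 among genes at a mean of 1 TPM or more. Cenpa, the centromeric histone variant, stood at 43.3, 44.6, 42.4 and 32.7 TPM, low in replicate 4. Cenpc1, which links CENP-A nucleosomes to the outer kinetochore, stood at 27.0, 27.5, 24.2 and 22.5. Cenpn and Cenpl, whose products form a unit that reads CENP-A, were at 31.4 ± 1.48 and 16.6 ± 0.943 TPM.

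With exon lengths, subunits of the network's complexes did not share a level. In the subcomplex of CENP-H, CENP-I, CENP-K and CENP-M the genes were at 42.0 ± 3.53, 21.5 ± 1.73, 27.8 ± 1.71 and 110 ± 12.1 TPM, and Cenph exceeded Cenpk by 0.58 ± 0.07 on the log2(TPM + 1) scale. In the histone-fold complex Cenpx had 160, 169, 178 and 180 TPM, the highest of the centromere genes and the second of all members, Cenps 49.8, 51.3, 45.2 and 51.6, Cenpt 26.7 ± 2.51 and Cenpw 14.4 ± 1.92. CENP-S and CENP-X also serve in DNA repair with the Fanconi anaemia protein FANCM. In the complex of CENP-O, CENP-P, CENP-Q and CENP-U the values were 14.3 ± 0.755, 35.7 ± 5.48, 41.9 ± 2.03 and 16.1 ± 1.55 TPM. With median transcript lengths these 4 were closer, at 31.8, 21.5, 35.1 and 21.6 TPM. Of 15 steps in the order of the inner kinetochore genes only 4 were free of overlap, below Cenpx, Cenpm, Cenpn and Cenpi. Median transcript lengths turned the steps below Cenpm (82.6 TPM, Cenps 85.6) and Cenpi (24.1, Cenpl 29.7).

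The CENP-named genes outside the network were Cenpb (85.4 ± 5.93 TPM), which binds a satellite motif, Cenpe (46.9, 48.9, 51.5 and 41.2), a kinesin of the kinetochore that congresses chromosomes, Cenpf (17.8 ± 1.03), a corona protein, Cenpj (17.5 ± 1.07), a centriole protein, and Cenpv (17.2 ± 0.851). Cenpe exceeded Cenpf by 1.35 ± 0.06 on the log2(TPM + 1) scale.

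The length used for a gene bears on these comparisons. TPM was computed with all exon bases of a gene, which for Cenpa come to 5860, whereas its complete protein-coding transcripts have a median of 906 bases. With the median transcript length of each gene, chosen after the data had been seen, Cenpa went from 40.7 to 165 TPM and from rank 22 to rank 2 among the members, Cenpo from 14.3 to 31.8 TPM, and Kif11 took rank 3 at 120 TPM behind Cenpx (166). The order of Cenpa and Cenpb turned with it, from -1.06 ± 0.27 to 1.60 on the log2(TPM + 1) scale. Other pairs drew closer without turning: Kif2c minus Kif2a became 0.28, Kif13b minus Kif13a 0.26, Cenps minus Cenpx -0.95 and Cenpl minus Cenpn -0.42. The distance of mitotic from transport medians became 3.39.

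**Figure D4:**
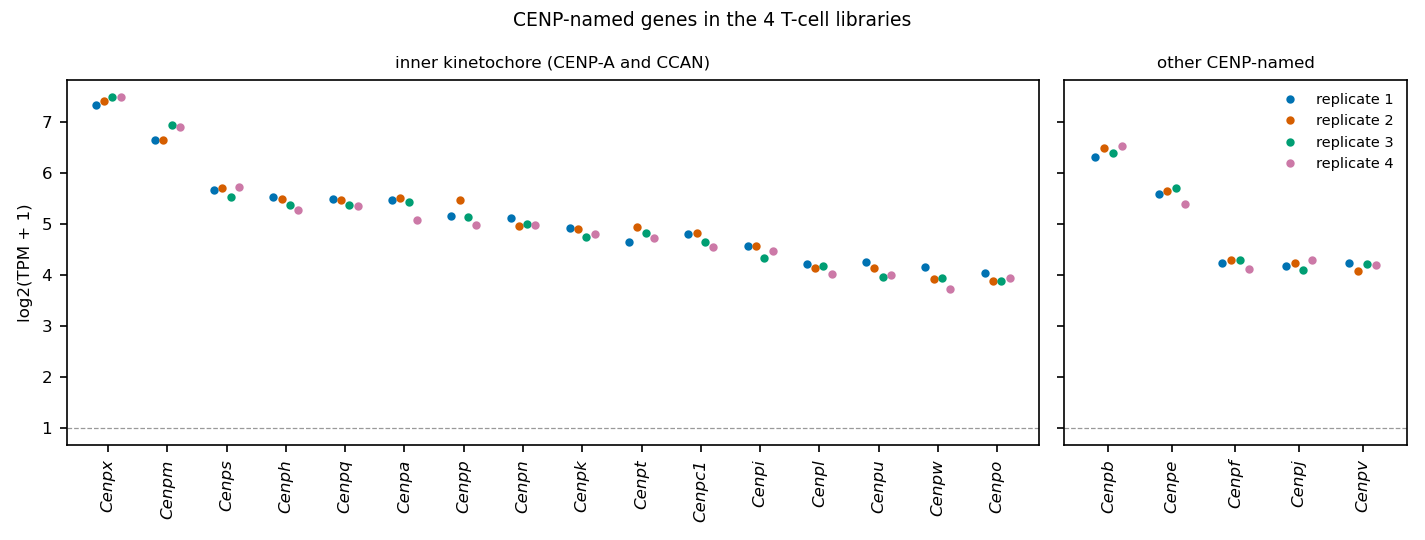
Level of the 21 CENP-named genes as log2(TPM + 1), a point for each library, ordered by mean within the inner kinetochore list and the remaining genes; the dashed line marks 1 TPM. All points lie far above the line, and Cenpx and Cenpm stand above the rest of the inner kinetochore.

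In 16 pairs of paralogs or partners set for comparison, no difference changed direction between the libraries. The pairs were chosen with earlier results of these data known, so no test is attached to them. Besides the pairs above, Kif20a exceeded Kif20b by 1.64 ± 0.18, Kifc1 exceeded Kifc3 by 3.66 ± 0.22 and Kif5b exceeded Kif5a by 6.33 ± 0.12 on the log2(TPM + 1) scale. Cenpt exceeded Cenpw by 0.85 ± 0.25, whereas Cenps minus Cenpx was -1.78 ± 0.13 and Cenpl minus Cenpn -0.88 ± 0.07. The smallest distances, Cenph over Cenpk and Kif13b over Kif13a (0.61 ± 0.20), were larger than their SD between libraries.

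Genes that work with these members were expressed too. The 10 outer kinetochore genes all reached 10 TPM in the 4 libraries, with Zwint (133 ± 5.89) and Spc24 (91.8 ± 7.05) highest and Knl1, the scaffold of the checkpoint, lowest (27.9 ± 1.68). The same held for the 4 CENP-A loading genes, with the chaperone gene Hjurp (134 ± 5.76) and Mis18a (52.4 ± 4.07) highest. It held for the 7 genes of the chromosomal passenger complex and central spindle, from Incenp (263 ± 18.0) and the kinase gene Aurkb (190 ± 11.4) to Prc1 (37.2 ± 2.40), and for the 6 checkpoint genes, from Bub1b (149 ± 8.63) and Bub3 (97.9 to 102) to Ttk (21.7 ± 1.87). Partners of the transport motors were mixed: 4 of 7 passed 10 TPM in all 4 libraries, with the light chain gene Klc1 (73.5 ± 1.95) and the mitochondrial adaptor gene Trak2 (61.6 ± 1.08) highest and Klc3 (5.00 ± 0.520) lowest. In the list of cytoplasmic dynein, the motor of the opposite direction, Dynll1 (95.2 ± 7.64) and Dync1h1 (92.2 ± 4.80) were highest, and the neuronal intermediate chain gene Dync1i1 had no fragment.

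In an edgeR negative binomial fit with an intercept only, 53 members passed the filter on low counts and 0 varied between libraries at a Benjamini-Hochberg adjusted p under 0.05, against 46 of 12712 genes tested (0.362%). A count of 0 is close to that share, and changes of 1.5-fold were recovered in only 25.4% of simulated cases. At an unadjusted p under 0.05 were 5 members (9.43%), Cenpa, Kif9, Kif21b, Kifc1 and Kif20a, against 5.54% of all genes. The median residual deviance, a measure of spread relative to the dispersion trend at a gene's level, was 2.63 for the members and 1.98 for all genes tested. It was 3.55 for the 12 mitotic and 1.34 for the 10 tested transport kinesins. Cenpa had the largest deviance of the members (13.0, edgeR adjusted p = 0.357), and Kif13b the smallest (0.328).

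The small deviations of the mitotic kinesins had a shared direction. In replicate 4 all 12 were below their own mean over the 4 libraries, with a median deviation of -0.11 on the log2(TPM + 1) scale, against -0.010 for the 12437 genes at a mean of 1 TPM or more. In replicate 2 none of the 12 was below it, against 42.2% of all genes, with a median of 0.089 against 0.015. Replicate 4 was the lowest library for 7 of 12 (58.3%), against 27.8% of all genes at that level. Of the 10 transport kinesins at that level 8 were below their mean in replicate 4, with a median of -0.043, and 13 of the 16 inner kinetochore genes were (-0.067). The passenger and central spindle list had 7 of 7 genes and the checkpoint list 6 of 6 genes below their mean there, against 54.5% of all genes. The outer kinetochore list had 8 of 10 below, the CENP-A loading list 3 of 4, and the dynein list 6 of 7. The other CENP-named genes had 2 of 5 and the partners of transport motors 4 of 7. In replicate 2, 0 of 7 passenger and central spindle genes and 0 of 4 CENP-A loading genes were below their mean. The checkpoint list had 1 of 6 below there, other kinesins 1 of 6, other CENP-named genes 1 of 5 and the outer kinetochore 2 of 10. Inner kinetochore genes had 6 of 16, transport kinesins 4 of 10, the dynein list 3 of 7 and partners of transport motors 4 of 7. Genes of 1 library share its cells and are not independent, and replicate 2 also differed in depth, whose part in this was not tested. In bulk RNA fewer dividing cells and less of these RNAs per cell cannot be told apart.

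**Figure D5:**
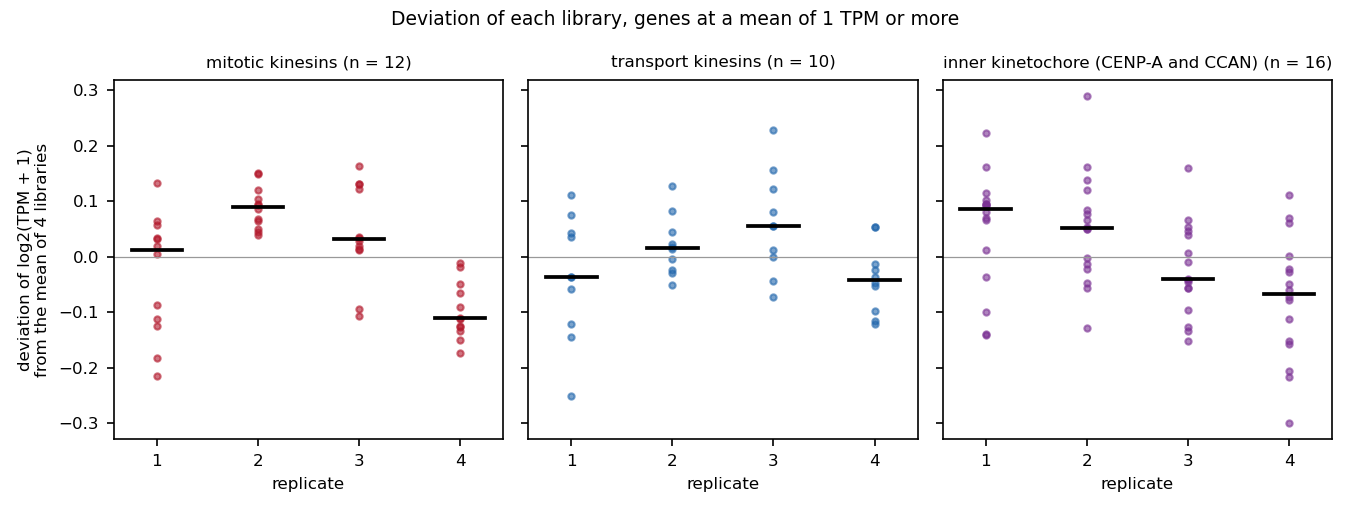
Deviation of log2(TPM + 1) of each gene from its mean over the 4 libraries, for mitotic kinesins, transport kinesins and inner kinetochore genes at a mean of 1 TPM or more; points are genes and black bars list medians. All 12 mitotic kinesins lie below 0 in replicate 4 and above 0 in replicate 2.

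Overlapping genes touched a few members. On the same strand no member shared more than 2.00% of its exon bases with another gene (Kif28 with Ahctf1). On the opposite strand Kif3c shared 40.7%, Kif20a 33.2% with Cdc23, and Kifc3 27.5%; the tables were counted with strand, per the file headers.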

How the data were processed

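Per the file headers, the authors counted fragments per gene with featureCounts 1.4.6-p4 on GENCODE vM13 exons, with both ends aligned and strand setting 2, and without fragments that align to several places or overlap several genes; the deposited values are whole-number counts. The build is mm10 per the labels, and alignment settings are not given in the sources used here. The other column used, the exon length of a gene, is deposited in the same tables.

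Symbols came from GENCODE vM21 by identifier without version (50376 of 50600 matched). TPM was computed from counts and exon lengths, and log2 values with a pseudocount of 1. All 6 pairings of libraries differed beyond counting error (chi-square over degrees of freedom, 9.21 to 32.1), so none was deposited in duplicate, which does not show that they came from separate animals. Variation was fitted with edgeR 4.0.16 (R 4.3.3): filterByExpr with a minimum count of 10, TMM factors of 0.998 to 1.002, trended dispersion, and residual deviance on 3 degrees of freedom. No quasi-likelihood contrast was possible with 1 group. In simulated counts of 12712 genes for this fit, 25.4, 79.1 and 93.9% of genes moved 1.5-, 2- and 4-fold in 1 library were recovered. Promoter windows are from RefSeq (GRCm38.p6, the assembly called mm10); the last 30 bases of 53 of 62 member windows occurred in a GENCODE transcript of the gene. Python 3.11.15 with pandas 2.3.3 and matplotlib 3.10.9 was used. Text files that list the files of each library were not used.

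Every member at a mean of 1 TPM or more is named, and of the lists of partner genes the 2 highest and the lowest gene, of which 1 is not reported here; marker lists are given as sums. Members, lists, pairs and motifs were chosen with earlier results of these data known. Alternatives covered scaling, length, pseudocount, filters, list membership, dispersion, motif search and each library left out.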

Additional observations from a re-analysis of the deposited data

Results flagged for a closer look

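Totals, member levels and pair differences gave 74 sets of values, and in 5 of them a single library stood apart from the other 3 by Dixon's criterion, which chance alone meets in about 1 of 20 sets. The total of replicate 2, 273136467 fragments, stood apart from 47558517 to 60102919 in the others. Kif11 was low in replicate 4, at 173 TPM against 197 to 201, and Kif23 was low there as well, at 38.5 TPM against 42.7 to 43.0. Kif3c was high in replicate 2, at 3.47 TPM against 2.96 to 2.99. Kif13b exceeded Kif13a by 0.90 on the log2(TPM + 1) scale in replicate 1 and by 0.47 to 0.54 in the others.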

How the results depend on the processing

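The 50 members at 1 TPM in all libraries were also 50 in number with TMM correction, median transcript lengths, replicate 2 thinned and each replicate left out, 48 as FPKM and 44 at a threshold of 10 TPM. The mitotic minus transport difference (2.85) was 3.00 with a pseudocount of 0.1, 2.05 for members at a mean of 1 TPM or more, 2.52 as FPKM, 3.39 with median transcript lengths and 2.80 to 2.90 with a replicate left out. The inner kinetochore minus transport difference (1.95 ± 0.23) was 1.15 for members at 1 TPM or more, 1.68 as FPKM, 2.25 with wider lists, 2.55 with median transcript lengths and 1.84 to 2.01 with a replicate left out. With median transcript lengths 1 of the 16 pairs turned, Cenpa minus Cenpb (1.60, since the exon bases of Cenpa exceed its transcript length). The other alternatives could not turn a pair. Pseudocount and FPKM keep the order of genes within a library, and each pair had the same direction in every library. The 0 varying members became 2 with a common dispersion, Kif9 and Kifc2, where 862 genes (6.78%) were called, and stayed 0 under the other alternatives, DESeq2 size factors included. On the sense strand alone 13 of 55 members held a CHR, against 21 on both and 13.2% of all genes; for mitotic kinesins it was 6 of 11. Thinning replicate 2 moved none of 50 member levels beyond its SD, and transcript lengths moved 43. Leaving out 1 of 4 libraries cannot move a mean beyond its SD, and TMM factors of 0.998 to 1.002 hardly change a level. Those settings therefore do not test the levels. Depth limits the kinesins at or near 0, whose upper limits lie between 0.0229 and 0.0953 TPM in the shallowest library. No paired analysis was possible because there is 1 group.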
